A study of Mus musculus with 6 samples.

Results

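Mitosis genes, the genes whose products carry a cell from late G2 phase through chromosome segregation and cytokinesis, were examined in mouse skin after chronic restraint stress. The set held 40 genes listed by symbol, and all 40 were found among the 54146 Ensembl gene IDs of the files. Genes of DNA replication, which belong to S phase, were kept as a separate list. Total RNA of whole skin was sequenced from 3 mice under chronic restraint stress (CRS), in which an animal is repeatedly confined, and from 3 control mice (CON), both taken after 12 weeks. The sources used here name no allele, transgene or drug for either group, and give no strain, sex, age, skin region or hours of restraint. The comparison asks how transcript levels of the mitotic apparatus differed between stressed and unstressed skin. In a piece of whole skin, fewer dividing cells and less mitotic RNA per dividing cell cannot be told apart.

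Mitosis is driven by the kinase CDK1 bound to a cyclin. The kinase is switched on by CDC25 phosphatases and helped by Polo and Aurora kinases, and it is switched off when the anaphase-promoting complex marks the cyclins for destruction. Transcripts of these genes accumulate in G2 and M phase and are low in resting cells, partly because the MuvB complex acts at their promoters, with FOXM1 and B-MYB in cycling cells and as the repressive DREAM complex in resting ones. In skin, dividing cells lie mainly in the hair matrix of growing follicles, in the basal layer of the epidermis and at the edge of the sebaceous gland.

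The promoters of these genes are shown first because they carry sequence features that the list did not use. Windows from 250 bases before to 50 bases after the RefSeq start site (build GRCm38.p6) were given for 34 of the 40 genes, 35 windows in all, since Prc1 has a pair of them. The genes without a window were Aurkb, Ccna2, Cdc25c, Foxm1, Kif20a and Tpx2. Letters were searched on both strands. The 6 windows below belong to genes described later and are printed on the gene's strand, with TTTGAA (the cell cycle genes homology region, CHR, the letters that MuvB binds) and CCAAT (the box bound by NF-Y), or their reverse complements TTCAAA and ATTGG, in capitals. Cdk1 (chr10:69352863-69353162, minus strand), Ccnb2 (chr9:70421505-70421804, minus), Ube2c (chr2:164769679-164769978, plus) and Plk1 (chr7:122159185-122159484, plus) hold both elements. Ccnb1 (chr13:100786437-100786736, minus) holds CCAAT without TTTGAA, and Mad2l1 (chr6:66534971-66535270, plus) holds neither.
Cdk1: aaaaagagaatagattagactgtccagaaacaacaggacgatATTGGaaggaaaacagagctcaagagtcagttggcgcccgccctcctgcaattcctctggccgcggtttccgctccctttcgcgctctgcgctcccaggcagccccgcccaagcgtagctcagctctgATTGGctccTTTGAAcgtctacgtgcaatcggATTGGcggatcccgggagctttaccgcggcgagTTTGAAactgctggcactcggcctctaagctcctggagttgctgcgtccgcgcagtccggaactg
Ccnb2: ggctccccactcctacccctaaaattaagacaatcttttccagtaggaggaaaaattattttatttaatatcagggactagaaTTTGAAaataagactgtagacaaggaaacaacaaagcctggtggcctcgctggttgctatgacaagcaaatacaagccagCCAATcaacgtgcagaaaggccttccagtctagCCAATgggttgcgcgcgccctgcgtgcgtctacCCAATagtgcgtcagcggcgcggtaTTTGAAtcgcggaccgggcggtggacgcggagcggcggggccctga
Ube2c: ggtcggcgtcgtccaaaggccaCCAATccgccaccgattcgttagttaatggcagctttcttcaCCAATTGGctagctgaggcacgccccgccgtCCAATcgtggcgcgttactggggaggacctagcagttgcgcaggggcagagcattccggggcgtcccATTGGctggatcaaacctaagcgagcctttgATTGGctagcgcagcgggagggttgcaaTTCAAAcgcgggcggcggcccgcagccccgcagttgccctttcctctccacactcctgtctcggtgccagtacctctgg
Plk1: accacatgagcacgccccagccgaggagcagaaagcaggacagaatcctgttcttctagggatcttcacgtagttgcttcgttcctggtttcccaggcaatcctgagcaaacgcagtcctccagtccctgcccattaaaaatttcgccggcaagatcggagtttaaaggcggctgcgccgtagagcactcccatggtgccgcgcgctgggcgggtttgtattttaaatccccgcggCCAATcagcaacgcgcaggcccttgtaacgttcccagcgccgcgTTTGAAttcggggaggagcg
Ccnb1: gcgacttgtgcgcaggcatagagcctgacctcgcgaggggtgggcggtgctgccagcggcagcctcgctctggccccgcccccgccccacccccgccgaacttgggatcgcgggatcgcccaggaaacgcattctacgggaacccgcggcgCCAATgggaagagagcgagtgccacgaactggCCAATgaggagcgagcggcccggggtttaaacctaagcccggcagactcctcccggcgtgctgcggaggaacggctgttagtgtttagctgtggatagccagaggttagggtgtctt
Mad2l1: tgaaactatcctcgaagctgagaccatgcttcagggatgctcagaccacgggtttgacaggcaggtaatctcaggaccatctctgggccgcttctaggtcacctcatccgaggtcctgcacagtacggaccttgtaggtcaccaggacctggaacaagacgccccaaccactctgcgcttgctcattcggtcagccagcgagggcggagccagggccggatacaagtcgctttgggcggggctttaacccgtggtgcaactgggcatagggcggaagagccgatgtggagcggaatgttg

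TTTGAA stood in 26 of the 35 windows of mitosis genes, 74.3%, against 17.9% of all 32851 windows. The list is not a random draw of genes, and the windows of Prc1 overlap and hold the same TTTGAA. The shares are therefore given as a description, without a test. Within 100 bases of the start site it stood in 71.4% of the mitosis windows and 8.01% of all windows. The S phase list differed in this respect: 4 of its 39 windows held TTTGAA, 10.3%. The wider list of other G2 and M genes lay between, with TTTGAA in 34 of 64 windows, 53.1%. The E2F core, searched as TTCCCGC and also as TTGGCGC and also as TTCGCGC and also as TTGCCGC, an element of S phase promoters, stood in 66.7% of the S phase windows, 31.3% of the other G2 and M windows, 14.3% of the mitosis windows and 9.57% of all windows. CCAAT stood in 74.3% of mitosis windows, 73.4% of other G2 and M windows and 61.5% of S phase windows, against 37.4% of all. Both TTTGAA and CCAAT were present in 22 mitosis windows, 62.9%, in 42.2% of other G2 and M windows, in 7.69% of S phase windows and in 6.95% of all windows. These shares describe letters in a window and show no binding.

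The spacing of the CCAAT boxes, looked at after their positions were seen, was regular in some of the promoters. Counting the first base of each box from the start site, Ccnb2 held boxes at -87, -54 and -21, each 33 bases from the next, and Ccnb1 held boxes at -99 and -67, 32 bases apart. The range of spacings counted next was read from these same promoters, so the counts are a description and no evidence of a difference between lists. A pair of boxes on the same strand 31 to 33 bases apart stood in 8 of the 35 mitosis windows, 22.9%, in 1 of 39 S phase windows and in 0.794% of all windows. It stood in 0 of the 64 windows of other G2 and M genes. In Plk1, the CCAAT box at -14 and the TTTGAA at 31 both lay next to the start. Of the genes tested for expression below, 25 with TTTGAA had a median log2 fold change of -0.79 and 8 without it had -0.80, so the windows did not separate the genes by their difference between the groups.

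Values are FPKM, fragments per kilobase of exon per M fragments, which are scaled by length and library size, so that levels can be set beside each other. Length trends that differ between libraries remained, as described below, so comparisons of short with long genes are rough. Between 98.1% and 98.3% of low values per library were whole multiples of 1 fragment, from which libraries of 13.3 to 25.7 M fragments were inferred. The epidermal keratin genes Krt14 and Krt5 stood at 769 to 1198 and 545 to 1214 FPKM. CON replicate 1 stood apart, with 13.9% of its fragments from mitochondrially encoded genes against 1.72% to 3.52% in the other mice and with 2.80 FPKM of Xist, the RNA of the inactive X chromosome, against at most 0.168. The Y-linked gene Ddx3y was present in all 6 mice, at 8.69 to 32.7 FPKM. The CRS libraries also differed in how their values depended on gene length, with CRS replicate 2 opposite to the other CRS mice, as described below. Counts and medians of the set, and those of some of the lists, are also given without CON replicate 1 or CRS replicate 2.

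Of the 40 genes, 39 passed the filter of a mean of at least 0.1 FPKM, and the kinase gene Nek2 did not. In CRS skin 38 of the 39 had a lower level, by a median log2 fold change of -0.79, where 67.8% of all 28389 genes tested were lower by a median of -0.20. Relative to all genes the median was -0.59. In 17 of the 39 genes every CRS mouse lay below every CON mouse, against 5.19% of all genes, and in 0 of the 39 every CRS mouse lay above, against 1.65%. With limma, 15 of the 39 were lower at an unadjusted p under 0.05, against 1.63% of all genes, and 0 were higher, against 0.919%. After Benjamini-Hochberg adjustment over all genes, 0 of the 39 and 0% of all genes passed, with a smallest limma adjusted p of 0.9999 among the 39. With limma voom on recovered fragments 0 passed as well. There 38 of the 39 were lower, against 71.7% of all genes, 10 of them at an unadjusted p under 0.05, against 1.19%. No gene below is therefore called changed, and levels are given as values. The exact permutation test of 3 against 3 mice cannot go below p = 0.1, the value it gave for each of the 17 genes, and it gave 0.2 to 1 for the others. In a simulation of this comparison over 28389 genes with the spread of the real ones, the adjusted limma test found 0% of the genes given a difference of 1 on the log2 scale, 8% of those given 2, 16% of those given 3 and 58% of those given 5. These shares hold for 50 genes given each difference, and 1 unchanged gene was called.

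**Figure D1:**
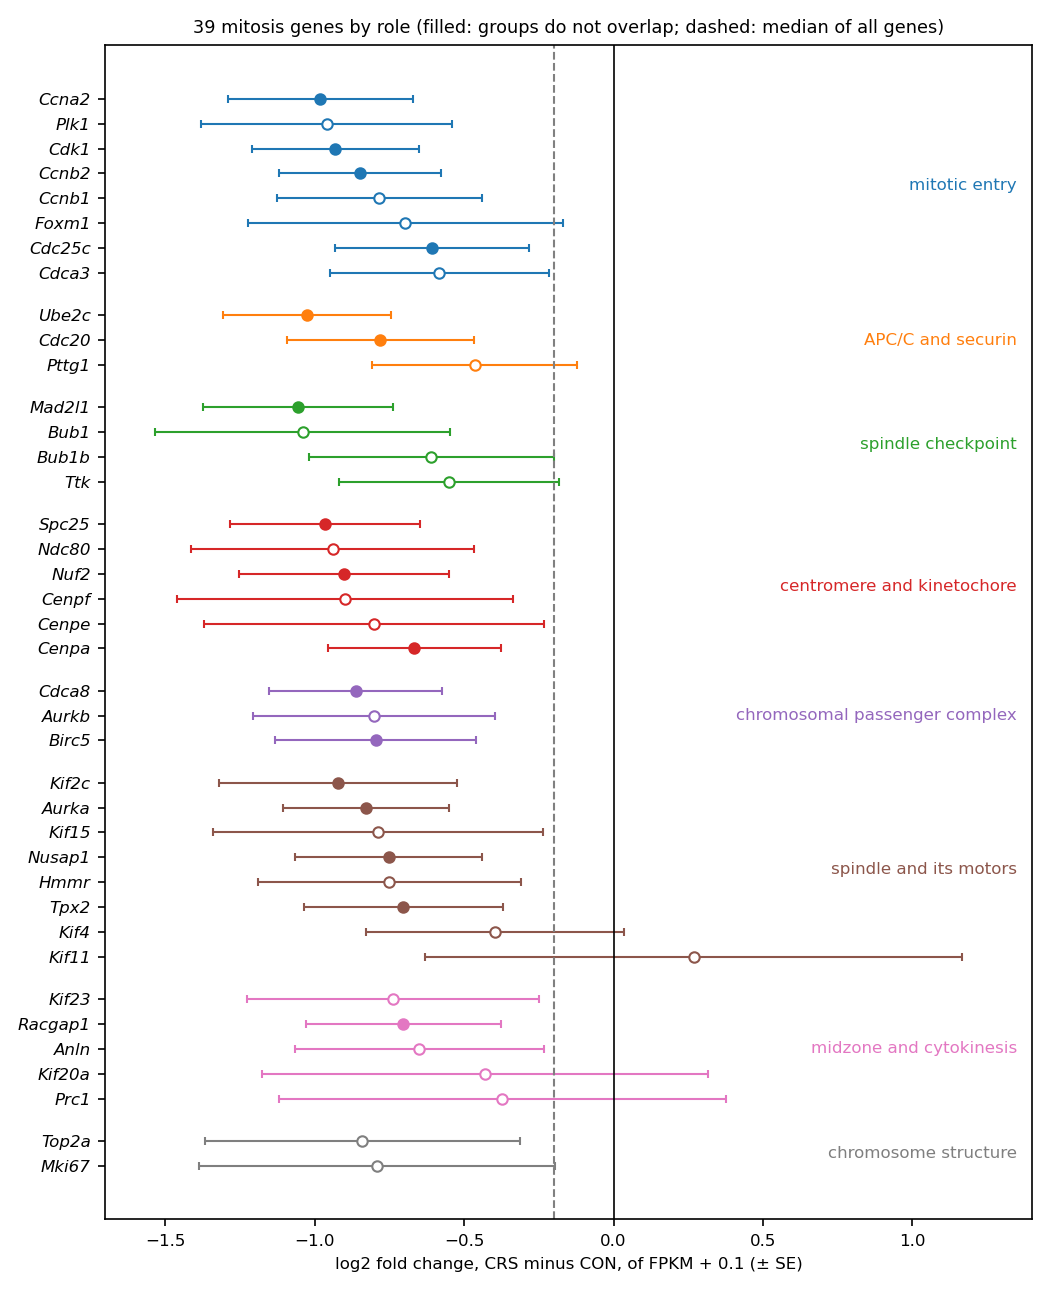
Log2 fold change of CRS minus CON (x axis, on the log2(FPKM + 0.1) scale, bars show the standard error) for the 39 mitosis genes tested, grouped by role. Filled points are the 17 genes whose groups did not overlap, the dashed line is the median of all genes at -0.20, and only Kif11 lies above 0.

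Among the genes of mitotic entry, all 8 were lower in CRS, with a median log2 fold change of -0.82, and 4 had groups that did not overlap. Cdk1, the kinase itself, stood at 13.3, 12.4 and 11.6 FPKM in CON replicates 1 to 3, against 5.94, 6.22 and 7.27 FPKM in the CRS replicates. Every CRS mouse was lower than every CON mouse, and the CON mean was 1.92 times the CRS mean (log2 fold change -0.93, SE 0.28, limma unadjusted p = 0.00944).

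Cyclins bind and direct the kinase. Ccnb2, cyclin B2, was at 22.9, 23.7 and 23.5 FPKM in CON, against 11.1, 13.8 and 14.1 FPKM in CRS, a log2 fold change of -0.85 (SE 0.27). Its CON values differed little from mouse to mouse, with a mean of 23.4 ± 0.45 FPKM (SD, n = 3) against 13.0 ± 1.69 in CRS. Ccna2, cyclin A2, which also acts in S phase, was at 19.2, 18.0 and 16.5 FPKM in CON, against 7.81, 12.4 and 7.54 FPKM in CRS. The groups of Ccna2 did not overlap, although CRS replicate 2 was nearer to CON than the others were (log2 fold change -0.98, SE 0.31). Ccnb1, cyclin B1, was at 16.1, 15.8 and 12.5 FPKM in CON, against 6.40, 12.7 and 7.54 FPKM in CRS. Here CRS replicate 2 reached the lowest CON mouse, and the groups overlapped (log2 fold change -0.78, SE 0.34). Processed pseudogenes of Ccnb1 and Ccnb2 were listed at 0.202 to 0.658 and 0.226 to 0.875 FPKM, so fragments of these genes may be shared with them, and the same holds for Kif4 with its pseudogene at 0.00938 to 0.238 FPKM.

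The activators of the kinase had wider spreads. Cdc25c, the phosphatase that activates CDK1, was at 7.49, 5.82 and 6.86 FPKM in CON, against 5.55, 4.39 and 3.39 FPKM in CRS. Its groups were separated by a narrow gap, from 5.55 to 5.82 FPKM (log2 fold change -0.61, SE 0.33). Plk1, the Polo kinase, was at 13.5, 7.80 and 9.34 FPKM in CON, against 4.19, 8.78 and 3.52 FPKM in CRS. CRS replicate 2 of Plk1 lay inside the CON range and the other CRS mice lay far under it (log2 fold change -0.96, SE 0.42). Foxm1, the transcription factor of G2 and M genes, was at 5.62, 3.73 and 3.11 FPKM in CON, against 1.98, 5.30 and 1.37 FPKM in CRS, with the same mouse inside the CON range (log2 fold change -0.70, SE 0.53). Cdca3, a trigger of mitotic entry, went the other way, with CRS replicate 2 the lowest at 8.53 FPKM, while CRS replicates 1 and 3 at 19.3 and 17.0 FPKM were close to the CON values of 18.7 to 22.7 FPKM.

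**Figure D2:**
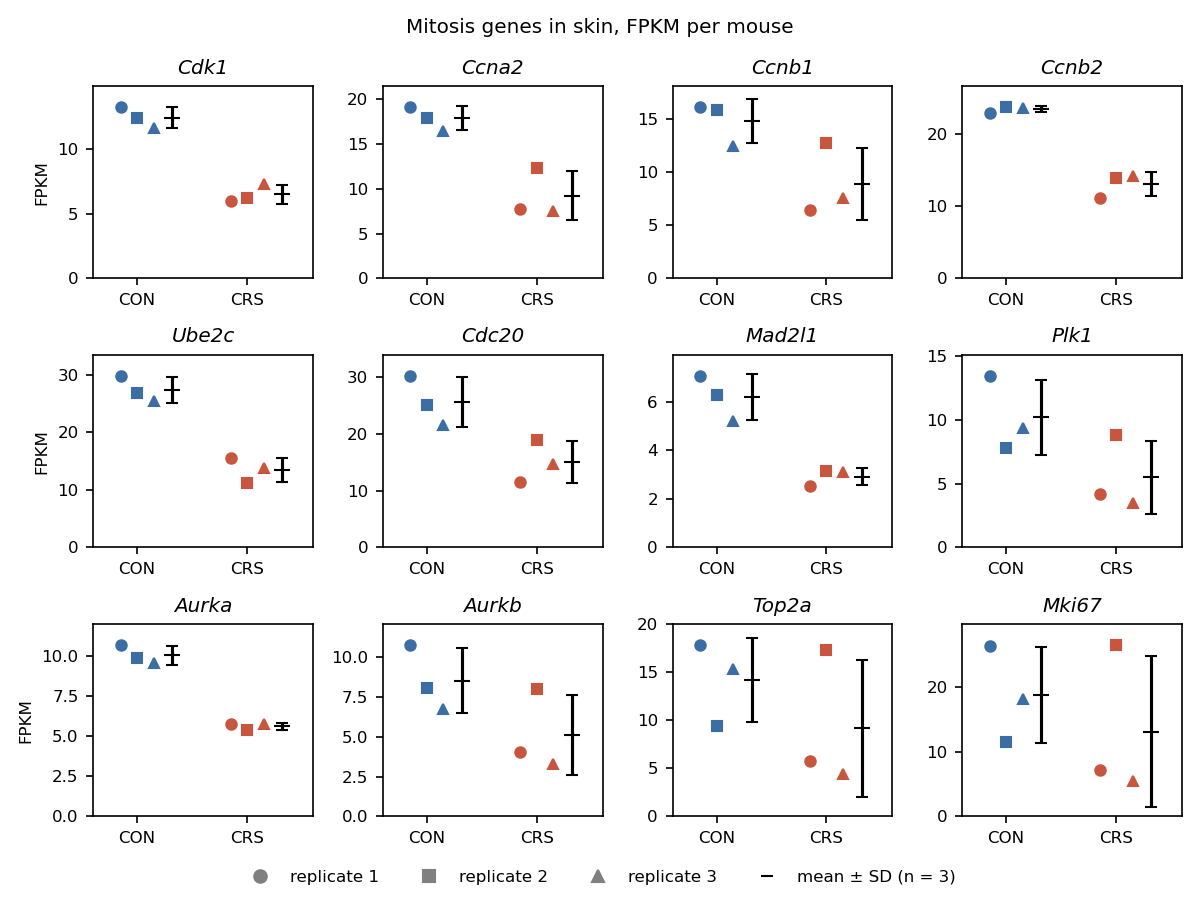
FPKM (y axes, from 0) of 12 mitosis genes in each CON and CRS mouse, with symbols for replicates and the mean ± SD of 3 mice beside them. CRS lies below CON without overlap for Cdk1, Ccna2, Ccnb2, Ube2c, Cdc20, Mad2l1 and Aurka, while CRS replicate 2 lies within or above the CON range for Ccnb1, Plk1, Aurkb, Top2a and Mki67.

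Exit from mitosis depends on the anaphase-promoting complex. Ube2c, the E2 enzyme that works with the complex, stood at 29.8, 26.7 and 25.5 FPKM in CON, against 15.5, 11.2 and 13.7 FPKM in CRS. It was the most abundant of the 40 genes in CON, and the CON mean was 2.03 times the CRS mean (log2 fold change -1.02, SE 0.28, limma unadjusted p = 0.00588, the lowest p of the 39). Of its merged exon length, 22.8% overlaps Tnnc2, a troponin gene of fast muscle on the opposite strand, which was listed at 0 to 1.32 FPKM. The skeletal muscle genes described later summed to 16690 FPKM in CON replicate 1, so the listed value of Tnnc2 may not be its level. Without strand, fragments of the overlap cannot be assigned, so the level of Ube2c is uncertain by an amount that was not tested. Cdc20, the activator of the complex, was at 30.3, 25.1 and 21.6 FPKM in CON, against 11.5, 19.0 and 14.7 FPKM in CRS, without overlap (log2 fold change -0.78, SE 0.31). Pttg1, securin, the inhibitor of the enzyme that opens cohesin, was at 13.8, 10.8 and 8.88 FPKM in CON, against 8.48, 5.67 and 10.4 FPKM in CRS. The groups of Pttg1 overlapped (log2 fold change -0.46, SE 0.34). The subunits of the complex itself, a separate list of 16 genes, were lower in 15, by a median log2 fold change of -0.32 where all genes had -0.20, with 0 at an unadjusted p under 0.05.

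The spindle checkpoint holds the complex back until every chromosome is attached. Mad2l1, which binds CDC20, was at 7.07, 6.28 and 5.20 FPKM in CON, against 2.52, 3.13 and 3.10 FPKM in CRS. Its CRS values were close together and well under CON, and it had the largest log2 fold change of the 39 genes in size, -1.06 (SE 0.32). Bub1b, the pseudokinase BUBR1, was at 9.81, 6.71 and 7.55 FPKM in CON, against 4.03, 9.12 and 3.72 FPKM in CRS. CRS replicate 2 of Bub1b lay above a pair of CON mice, and the log2 fold change was -0.61 (SE 0.41). The kinase genes Bub1 and Ttk, with log2 fold changes of -1.04 (SE 0.49) and -0.55 (SE 0.37), overlapped through the same mouse, at 4.05 and 3.16 FPKM.

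At the centromere and kinetochore, where chromosomes meet the spindle, all 6 genes were lower, with a median log2 fold change of -0.90, and 3 did not overlap. Spc25, a subunit of the NDC80 complex that grips microtubules, was at 7.50, 10.2 and 11.0 FPKM in CON, against 5.12, 3.88 and 5.51 FPKM in CRS (log2 fold change -0.97, SE 0.32). Of its partners in the complex, Nuf2 differed by a log2 fold change of -0.90 (SE 0.35) and Ndc80 by -0.94 (SE 0.47). Nuf2 was separated between groups, at 3.28 to 3.65 FPKM in CON and 1.56 to 2.23 FPKM in CRS, and Ndc80 was not. Cenpa, the histone variant that marks the centromere, was at 10.3 to 11.5 FPKM in CON and 5.55 to 7.69 FPKM in CRS. Cenpe, a kinesin of the kinetochore, was at 4.53, 2.17 and 4.23 FPKM in CON, against 1.67, 4.34 and 0.994 FPKM in CRS, with CRS replicate 2 among the high CON values (log2 fold change -0.80, SE 0.57). Cenpf, the longest of the 40 with 15433 bases of merged exon, had the same form, with 3.06 FPKM in CRS replicate 2 and under 1 FPKM in the other CRS mice.

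The chromosomal passenger complex corrects wrong attachments. Cdca8, borealin, was at 8.68, 7.66 and 8.18 FPKM in CON, against 4.41, 4.99 and 3.99 FPKM in CRS, and the groups did not overlap (log2 fold change -0.86, SE 0.29). Aurkb, its kinase, was at 10.8, 8.06 and 6.74 FPKM in CON, against 4.06, 8.01 and 3.30 FPKM in CRS. CRS replicate 2 again lay within the CON range (log2 fold change -0.80, SE 0.41). Birc5, survivin, was at 15.8 to 18.2 FPKM in CON, against 12.0, 6.36 and 11.7 FPKM in CRS, with CRS replicate 2 the lowest.

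Of the 8 spindle genes tested, 7 were lower. Aurka, the kinase of the spindle poles, was at 10.7, 9.93 and 9.57 FPKM in CON, against 5.75, 5.38 and 5.77 FPKM in CRS. Its CRS mice were nearly alike, at 5.63 ± 0.223 FPKM (SD, n = 3) against 10.1 ± 0.599 in CON, and CRS replicate 2 was the lowest of them by a small margin (log2 fold change -0.83, SE 0.28). Tpx2, the activator of this kinase, and the microtubule binder Nusap1 were separated between groups, with log2 fold changes of -0.70 (SE 0.33) and -0.75 (SE 0.31). Kif2c, a kinesin that takes microtubules apart, was at 4.46 to 5.16 FPKM in CON, against 1.94, 4.12 and 1.86 FPKM in CRS. Hmmr and the kinesin genes Kif15 and Kif4 overlapped between groups, with log2 fold changes of -0.75, -0.79 and -0.40.

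Kif11, the kinesin that pushes the spindle poles apart, was the exception in level and in direction. It was listed at 0.307, 0.198 and 0.141 FPKM in CON, against 0.0971, 1.46 and 0.0659 FPKM in CRS. That is 12 to 43 fragments in 5 mice and 280 in CRS replicate 2, while every other gene tested rested on 65 to 6879 fragments per mouse. The log2 fold change was 0.27 (SE 0.90), and without CRS replicate 2 it was -0.77 (SE 0.42). Nek2, a centrosome kinase, was listed at 0.0703, 0.0333 and 0.0333 FPKM in CON, against 0.0461, 0.103 and 0.0264 FPKM in CRS, 2 to 12 fragments per mouse, too few to compare. Why these genes are listed so far below the other mitosis genes could not be settled from the files, so their values may not be their levels in dividing cells.

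In the midzone and cytokinesis group, all 5 genes were lower, but 1 alone, Racgap1, had groups that did not overlap. Racgap1, part of the centralspindlin complex that positions the cleavage furrow, was at 7.56, 6.59 and 6.86 FPKM in CON, against 4.16, 5.67 and 3.26 FPKM in CRS (log2 fold change -0.70, SE 0.33). Prc1, which bundles the microtubules of the midzone, was at 2.68, 2.34 and 0.787 FPKM in CON, against 0.702, 4.04 and 0.733 FPKM in CRS (log2 fold change -0.37, SE 0.75). Kif20a, a kinesin of the same midzone, had a pattern like that of Prc1, at 2.87, 3.41 and 1.13 FPKM in CON, against 0.931, 5.40 and 0.826 FPKM in CRS. In both, CON replicate 3 was far below the other CON mice and a little above CRS replicates 1 and 3, and CRS replicate 2 was the highest of all 6. Both share exon with a gene on the opposite strand, Prc1 11.1% of its length with Rccd1 and Kif20a 29.3% with Cdc23, so their levels are uncertain. For Kif23, the partner of Racgap1, the log2 fold change was -0.74 (SE 0.49), and for Anln, anillin, it was -0.65 (SE 0.42). In all, 13 of the 40 genes share some exon with another gene, 6 of them over at least 10% of their length. Besides Ube2c, Prc1 and Kif20a, these were Ccna2 (12.5% with Exosc9), Cdc25c (12.7% with Gm3550) and Kif4 (15.1% with Pdzd11). Their partners too lie on the opposite strand, so their levels are uncertain as well.

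Top2a, topoisomerase II alpha, which untangles chromosomes, and Mki67, the Ki-67 protein that coats them and serves as the usual stain for proliferation, overlapped between the groups through CRS replicate 2. Mki67 was at 26.4, 11.6 and 18.2 FPKM in CON, against 7.24, 26.6 and 5.48 FPKM in CRS. CRS replicate 2 was the highest of all 6 mice and the other CRS mice were the lowest (log2 fold change -0.79, SE 0.59). Top2a was at 17.9, 9.36 and 15.4 FPKM in CON, against 5.77, 17.3 and 4.38 FPKM in CRS (log2 fold change -0.84, SE 0.53). Of both genes, CRS replicates 1 and 3 were nonetheless the lowest of the 6 mice. Without CRS replicate 2 the log2 fold change was -1.48 (SE 0.37) for Mki67 and -1.43 (SE 0.32) for Top2a. Leaving out the same mouse also moved others of the genes named above: Foxm1 was at -1.24, Bub1b at -1.01, Cenpe at -1.36, Kif20a at -1.26 and Prc1 at -1.15.

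How the CRS mice stood depended on gene length. Among the 39 genes, CRS replicates 1 and 3 lay below all CON mice in 37, against 27.4% of all genes, and CRS replicate 2 lay above the lowest CON mouse in 20. CRS replicate 2 was the highest of the CRS mice in 29 genes and the lowest in 7. Shares over all genes were not counted for these positions of CRS replicate 2, so they are not read as a trait of mitosis genes. The difference between CRS replicate 2 and the mean of the other CRS mice had a median log2 value of 0.023 over the 8 mitosis genes with under 3 kb of exon and of 1.67 over the 11 with over 7 kb. All genes of at least 1 FPKM had medians of -0.40 and 1.27 in the same classes, so the trend was one of whole libraries. It was not a property of CRS replicate 2 alone. From the shortest to the longest class, the median deviation of all genes went from -0.33 to 0.75 in CRS replicate 2, from 0.10 to -0.43 in CRS replicate 1 and from 0.013 to -0.64 in CRS replicate 3. In CON replicates 1 to 3 it went from 0.074 to 0.27, from 0.19 to -0.081 and from 0.13 to 0.14. Pearson's r was taken between log2 length and the difference of CRS replicate 2 from the other CRS mice. Across the 39 genes, which share these libraries, it was 0.55, and across the 14366 genes of at least 1 FPKM it was 0.58. Kif11, Kif20a and Prc1 lay above this trend, and Cdca3, Birc5 and Mad2l1 below it.

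**Figure D3:**
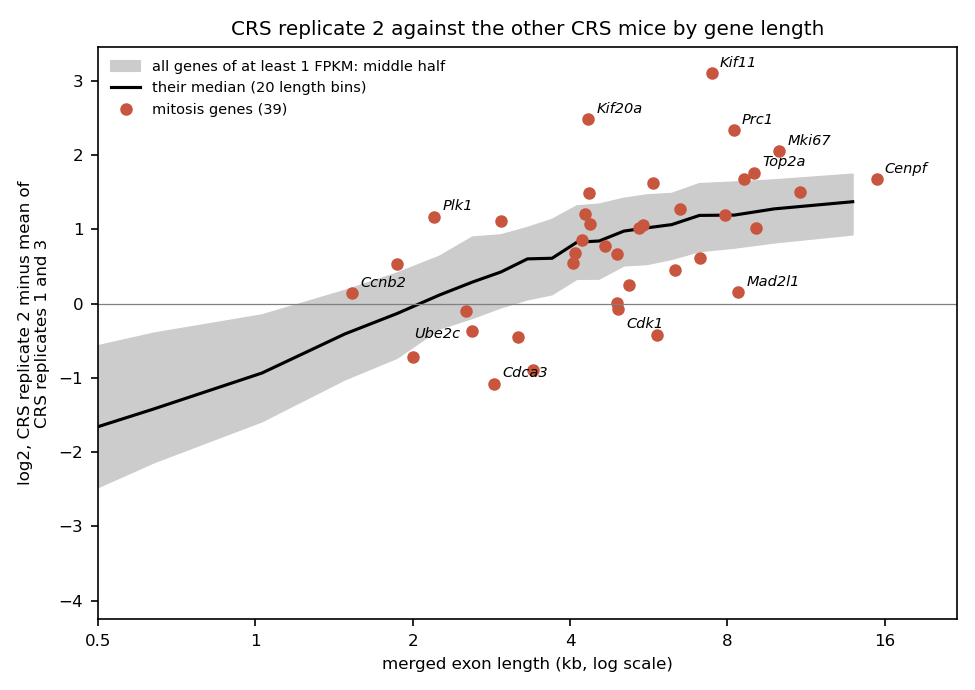
Difference on the log2(FPKM + 0.1) scale between CRS replicate 2 and the mean of CRS replicates 1 and 3 (y axis) against merged exon length (x axis, log scale, shown from 0.5 kb), for the 39 mitosis genes (points) and all genes of at least 1 FPKM (line for the median and band from the lower to the upper quartile in each of 20 length bins). Long mitosis genes such as Mki67 and Top2a lie high in CRS replicate 2, as long genes do in general, while Cdk1 and Mad2l1 lie under the line.

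A correction that subtracts each library's length trend, added after the data were seen, brought CRS replicate 2 to the side of the other CRS mice. The median of the mitosis genes, as the log2 deviation from each gene's mean over the 6 mice, was 0.56, 0.30 and 0.37 in CON replicates 1 to 3 and -0.58, 0.18 and -0.74 in the CRS replicates before it. After it the medians were 0.41, 0.20 and 0.28 in CON and -0.18, -0.24 and -0.34 in CRS. With this correction 38 of the 39 genes were lower, against 48% of all genes, 20 did not overlap, against 3.36%, and the median relative to all genes stayed at -0.59. At an unadjusted limma p under 0.05 there were 14, against 1.17% of all genes, and 0 passed the adjusted threshold. Ccnb1 then no longer overlapped between groups, while Mki67, Top2a, Plk1, Aurkb and Foxm1 still did, and Cdc25c, Cdc20, Cenpa and Birc5, separate without the correction, overlapped with it.

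Single mice moved the number of genes at an unadjusted p under 0.05. Without CRS replicate 2 it was 33 of 39, against 14.6% of all genes, all 39 were lower, against 61.2%, and the median relative to all genes was -0.80 (smallest limma adjusted p = 0.192). That value compares mitosis genes with genes of all lengths. Within length classes and without the same mouse, the medians of mitosis genes were -0.90, -0.96, -1.05 and -1.15 from under 3 kb to over 7 kb, where all genes of at least 1 FPKM had -0.065, -0.49, -0.58 and -0.65, so among genes over 3 kb the difference from genes of like length was smaller than -0.80 in size. Without CON replicate 1 it was 8 of 39, against 0.638% of all genes, with 38 lower, against 65%, and a median of -0.50. It was 7 without CON replicate 2, against 2.34%, 8 without CON replicate 3, against 0.8%, 10 without CRS replicate 1, against 3.54%, and 8 without CRS replicate 3, against 0.666%. Scaling moved the level of all genes and of the mitosis genes together: the median of all genes was -0.20 as deposited, 0.0040 with median-ratio scaling and -0.47 when rescaled without mitochondrial and muscle genes, and the mitosis median relative to it was -0.59, -0.56 and -0.57. Without both CON replicate 1 and CRS replicate 2, all 39 were lower, against 61.1%, 28 were at an unadjusted p under 0.05, against 10.9%, and the median was -0.74.

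Other lists of the cell cycle are given beside the mitosis genes, with no test between lists. Their counts are to be read against the 67.8% of all genes that were lower and the 5.19% whose groups did not overlap with CRS lower. The wider list of other G2 and M genes had 69 of 70 tested members lower, a median of -0.57 relative to all genes and 24 without overlap, and without CRS replicate 2 its median was -0.88. Its members of lowest p were Pbk, a mitotic kinase, with a log2 fold change of -0.96 (SE 0.30), the kinetochore gene Cenph with -0.96, Fbxo5, the inhibitor of the anaphase-promoting complex, with -1.18, and Cdca5, sororin, with -0.91. All 42 S phase genes were lower, with a median of -0.51 relative to all genes, and 19 did not overlap. Their median was -0.66 without CRS replicate 2 and -0.41 without CON replicate 1. Among them Rpa2, a single-strand DNA binding subunit, was at 10.4 to 13.1 FPKM in CON and 5.42 to 5.99 FPKM in CRS, and Pcna, the replication clamp, at 51.7 to 77.6 and 30.2 to 43.0 FPKM. Dut and Slbp, of nucleotide supply and histone mRNA, had log2 fold changes of -0.86 and -0.88. Whether the medians of these lists differ was not tested.

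Genes that act before S phase were also looked at. Of 12 G1 cyclin and kinase genes, 12 were lower, by a median of -0.36 relative to all genes (-0.55 without CRS replicate 2), led by the cyclin E genes Ccne2 (log2 fold change -1.08, SE 0.41) and Ccne1 (-0.75, SE 0.32), with Cdk2 at -0.74 and Ccnd2 at -0.73. Of 21 tested genes of the E2F factors, pocket proteins, MuvB and NF-Y, 20 were lower, by -0.35 relative to all genes (-0.65 without CRS replicate 2), none at an unadjusted p under 0.05, with Tfdp1, E2f1, E2f5 and Lin9 at -0.81, -0.79, -0.52 and -0.75. The higher one was Mybl2, B-MYB, at 4.34 to 7.63 FPKM in CON and 5.63 to 7.495 FPKM in CRS. Its groups overlapped (log2 fold change 0.16, SE 0.33), and it was named after its values were seen. Of 9 kinase inhibitor genes, 7 were lower, 77.8% where all genes had 67.8%, with a median of -0.24 relative to all genes (-0.086 without CRS replicate 2). The higher ones were Cdkn1a, p21, the most abundant of the list, at 74.2 to 116.3 FPKM in CON and 102.3 to 147.7 FPKM in CRS (log2 fold change 0.36, SE 0.34), and Cdkn2b at 0.041 (SE 0.35), both named after their values were seen. Cdkn2d, Wee1, Cdkn2c and Cdkn1b were at -0.44, -0.55, -0.45 and -0.66, with SEs of 0.28, 0.38, 0.33 and 0.60.

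**Figure D4:**
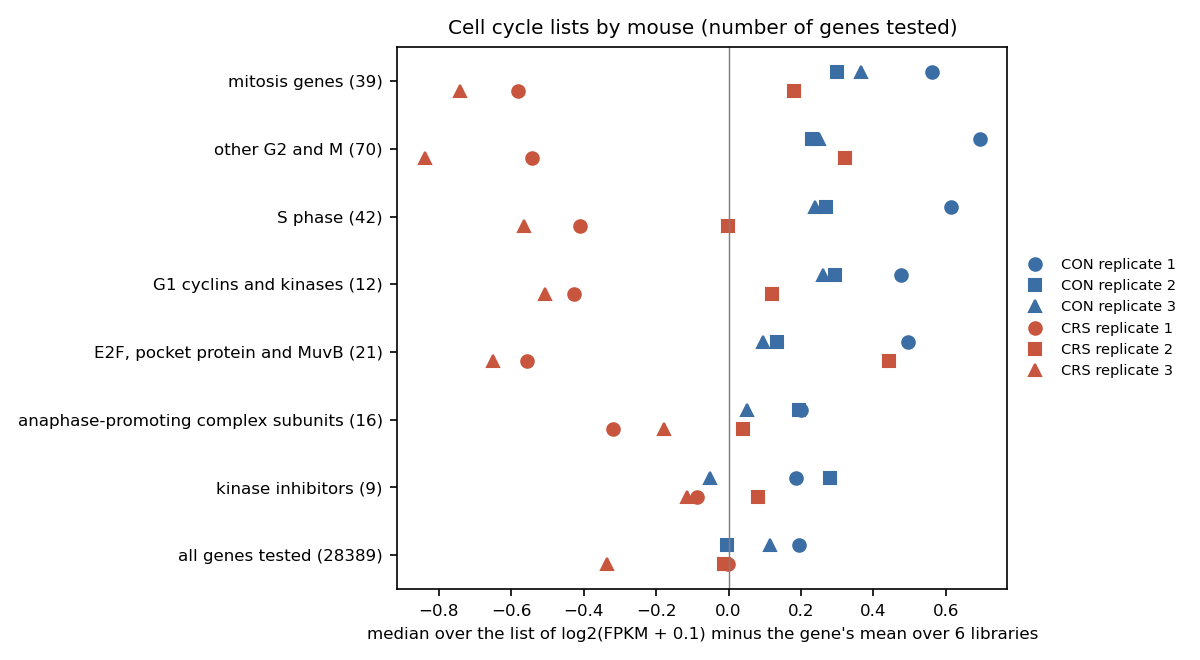
Median over each cell cycle list of log2(FPKM + 0.1) minus the gene's mean over the 6 mice (x axis), for each CON and CRS mouse, with the number of genes tested in brackets. For the mitosis genes CRS replicates 1 and 3 lie at -0.58 and -0.74 and CRS replicate 2 at 0.18, near the lowest CON mouse at 0.30.

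Markers of other tissues and cell types differed between the mice too. Of 23 tested skeletal muscle genes, 23 were lower in CRS, and the summed level of the list ran from 1809 to 16690 FPKM in CON and from 542 to 3558 FPKM in CRS, with Acta1 and Mylpf its most abundant members. Without CON replicate 1, 20 of the 23 were lower and the median went from -1.66 to -0.62 relative to all genes. Without CRS replicate 2 that median was -2.46. Another gene of the list was at 0 in all mice. With the muscle list's mean as a covariate, 35 of the 39 mitosis genes were lower, with a median of -0.34 relative to all genes. All genes then had a median of -0.12, and 33 of the 39 lay below it. At an unadjusted limma p under 0.05, 11 of the 39 and 892 of all 28389 genes were lower. The share of all genes lower in this fit was not counted. Mki67, Prc1 and Kif20a were above 0, as was Kif11, which was also above 0 without the covariate. The muscle genes' median log2 deviation was 2.98, -0.46 and 0.42 in the CON replicates and -2.09, 0.86 and -1.51 in the CRS replicates. It was highest in CON replicate 1, and CRS replicate 2 was the highest of the CRS mice. The covariate fit therefore cannot separate muscle from group or from these mice, and no conclusion is drawn from it. The hair matrix list, of a tissue that divides, had 13 of 17 members lower, 76.5% where all genes had 67.8%, and a median of -0.29 relative to all genes. Its sums were 1290 to 2016 FPKM in CON and 1324 to 3144 FPKM in CRS, most of it from Mt4 and Krt35. Mt4, among the 4 higher members, was at 663, 1305 and 1134 FPKM in CON, against 1609, 483 and 2584 FPKM in CRS. The sums therefore do not show the level of the other members. Without CRS replicate 2 the hair matrix median was -0.46. Basal epidermis genes, led by Krt14 and Krt5, were lower in 5 of 11 (10 of 11 without CRS replicate 2) and summed to 1593 to 2280 FPKM in CON and 2020.1 to 2621 FPKM in CRS. The hair shaft list, of cells that no longer divide, also holds inner root sheath genes such as Krt71 and Tchh. Its genes were higher in 21 of 21, led by Krtap8-1 and Tchh. Their sums were 7902 to 28727 FPKM in CON and 33175 to 49053 FPKM in CRS. Without CON replicate 1, 19 of 21 were higher, with the median going from 1.37 to 0.77 relative to all genes. All 13 mitochondrially encoded genes, led by mt-Co1 and mt-Nd1, were lower, with sums of 23546 to 118144 FPKM in CON and 15344 to 19570 FPKM in CRS, and without CON replicate 1 the median went from -1.19 to -0.26 relative to all genes, with 13 still lower. The part of these tissues in the mitosis result was not tested.

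The remaining marker lists went in both directions. Endothelial genes, led by Egfl7 and Pecam1, were lower in 9 of 10, with sums of 26.2 to 60.6 FPKM in CON and 15.6 to 43.8 FPKM in CRS, and melanocyte genes, led by Mlana and Tyrp1, were lower in 9 of 10, with sums of 281.6 to 318.5 and 192.2 to 236.7 FPKM. Higher were 14 of 14 suprabasal epidermis genes (Krtdap, Krt10), 8 of 10 sebaceous gland genes (Mgst1, Elovl3), 11 of 12 dermal fibroblast genes (Sparc, Col1a1), 12 of 13 tested lymphocyte genes (Trbc2, Igkc) and 13 of 13 macrophage and dendritic cell genes (Lyz2, H2-Aa). Without CON replicate 1 those higher were 9 of 14, 8 of 10, 5 of 12, 9 of 13 and 7 of 13 in the same order, and the endothelial median went from -0.54 to -0.14 relative to all genes. Without CRS replicate 2 the endothelial median was -0.96. Their part in the mitosis result was not tested either.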

How the data were processed

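The authors deposited FPKM per Ensembl gene, 1 file per library, for 3 CON and 3 CRS skin samples. The submitters' processing notes name HISAT2 and GRCm39. For the program that counted fragments, its annotation, its strand setting and all versions: not given in the sources used here. Symbols, exon lengths and overlaps came from GENCODE M21 (GRCm38), which held 54079 of the 54146 IDs. FPKM multiplied by exon length moved in whole steps (tolerance 0.05 of a step, for values up to 100 fragments), and the step size gave depth and fragment numbers, 13.3 to 25.7 M per library.

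Genes averaging 0.1 FPKM or more were tested on log2(FPKM + 0.1) with limma 3.58.1 (R 4.3.3, mean-variance trend, two-sided, Benjamini-Hochberg over 28389 genes, threshold 0.05). The pseudocount of 0.1 makes the fold changes of low genes too small. Members and lists were chosen with earlier results of these data known, so lists were described by counts and medians, without set tests. All members could be named. Full values were planned for 11 of them and for those of lowest and highest p in each role, and further lists were to be named by their 4 lowest p (cell cycle) or 2 most abundant genes (markers). The fit was tested on simulated data of 28389 genes. Alternatives were other pseudocounts, filters, scalings, variance models, weights, a replicate block, a muscle covariate, libraries left out, voom, and, after the data were seen, a length correction (lowess, span 0.3). Each library was taken as 1 mouse, as the study's design says.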

Additional observations from a re-analysis of the deposited data

How the results depend on the processing

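Under 19 alternatives, the direction was the same in 731 of 740 pairs of a gene and an alternative, 35 of the 39 genes kept it in all of theirs, and 0 pairs passed the adjusted threshold (smallest limma adjusted p = 0.0898, with array weights). Between 35 and 39 genes were lower, and the median relative to all genes stayed between -0.34 and -0.80. The count at an unadjusted p under 0.05, 15, was 4 with median-ratio scaling, 8 when rescaled without mitochondrial and muscle genes, 9 with no trend, 35 with array weights, 28 with both outlying libraries left out, and 7 to 33 with single libraries left out. Of all 28389 genes, 514 were lower at that p when rescaled in that way, 360 with no trend and 6525 with array weights. Over all genes, 462 were lower and 261 higher at that p, and 184 and 421 with median-ratio scaling, 333 and 758 with the length correction. Same-numbered mice did not deviate together (r = -0.30, -0.043 and 0.097), but so few values cannot settle whether the numbers pair them. The replicate block gave 5, against 370 of all 28389 genes. Direction turned for 4 genes. Kif11 was at -0.75 with array weights, -0.57 with both outlying libraries left out and -0.77 to 0.85 with single libraries left out. Its highest value under any alternative was 1.25. With the muscle covariate Prc1 was at 0.43, Kif20a at 0.30 and Mki67 at 0.018. With single libraries left out, Prc1 ran from -1.15 to 0.032 and Kif20a from -1.26 to 0.025. Beyond the fewer samples, the causes were not tested. Kif11 and Nek2 rest on few fragments at this depth, and the reason was not tested.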
